A study of Andrographis paniculata with 12 samples.

Results

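HMG-CoA reductase (3-hydroxy-3-methylglutaryl-coenzyme A reductase) was followed in leaves of Andrographis paniculata, a medicinal herb that makes the diterpene lactone andrographolide, during exposure to MeJA (methyl jasmonate), a volatile form of the defence hormone jasmonic acid. The genes were taken by name. An assembled gene was included where its best Swiss-Prot description contained the full enzyme name and its highest level was 1 or more, which gave 6 of the 32064 assembled genes of the series. A seventh gene of that name, TR82364|c0_g1, fell short of this minimum: it was listed at 0 before treatment, and its later levels were 0.613, 0.283 and 0.0993. The gene with the lowest peak among those included, TR86599|c0_g1, reached 2.30.

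Leaves were sampled after 0, 12, 24 and 48 h of MeJA, with 3 biological replicates labelled at each time, and poly(A)-enriched RNA was sequenced in strand-specific libraries. The table used here holds 1 mean per assembled gene and time, so no value below has an SD, no difference has a test, and whether a mean rests on 1 replicate cannot be seen. Every later time was compared with the leaves of 0 h, since no untreated leaves of 12, 24 or 48 h were analysed here, and the labels give neither a cultivar, a plant age, a MeJA dose nor the clock time of sampling. If treatment began at the same clock time for all leaves, those of 12 h were taken at another hour of day than the rest. Treatment and hour of day then cannot be told apart at 12 h. Levels are in the authors' normalised units, the depth behind them is unknown, and whether they are corrected for transcript length is not given in the sources used here. Differences are therefore read between times within a gene. Across genes, levels serve only for level filters and groups, for sums per component and for the lowest peak named above. Differences are given as log2(level + 1) at one time minus another, a scale that shrinks them where levels are low. The words higher and lower are used of a difference of at least 1 in either direction, which is 2-fold on that scale. A gene with a level under 1 at 0 h cannot be counted lower against 0 h at any later time.

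HMG-CoA reductase turns HMG-CoA into mevalonate with NADPH as the reductant and is the main control step of the mevalonate pathway, the cytosolic route of plants to the isoprenoid units of sterols, triterpenes and sesquiterpenes. A separate plastid route, the methylerythritol phosphate (MEP) pathway, supplies most of the units for diterpenes, carotenoids and the chlorophyll side chain. Plant HMG-CoA reductases sit in the membrane of the endoplasmic reticulum by a pair of N-terminal helices, with the catalytic domain in the cytosol. They are encoded by small gene families, and in potato and tomato different members are known to respond to wounding, pathogens and jasmonate.

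The authors' annotation bears on the name of the family. The reductase domain was listed in the Pfam column for all 6 genes and for no other of the 32064. The seventh gene, below the level minimum, had neither this domain nor a protein hit. The 6 genes lay on 5 assembly components, a component being read here from the first part of the gene label. Of these genes 2, TR82364|c1_g1 and TR82364|c1_g3, shared component TR82364. These 2 were also the members whose best TrEMBL hits were HMG-CoA reductase entries of A. paniculata itself, a different entry for each. By the translated transcript (BLASTX), the best TrEMBL hits of the other 4 came from the related plants Erythranthe guttata (TR59188|c3_g3 and TR86599|c0_g1), Salvia miltiorrhiza (TR3750|c0_g1) and Antirrhinum majus (TR51558|c0_g1). The best Swiss-Prot hits of the transcripts were to rubber tree reductase 1 for TR59188|c3_g3 and TR82364|c1_g3, rubber tree reductase 2 for TR51558|c0_g1, upland cotton reductase 2 for TR3750|c0_g1, Arabidopsis reductase 1 for TR86599|c0_g1 and the Camptotheca acuminata reductase for TR82364|c1_g1. The predicted proteins (BLASTP) had the same best hits except that TR82364|c1_g1 had potato reductase 1 in Swiss-Prot and TR51558|c0_g1 another entry of the order Lamiales in TrEMBL. These hits state similarity and not identity, and a gene of the plant may be split over several assembled genes.

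Membrane helices were predicted for 4 of the 6 proteins. A pair of helices was listed for TR82364|c1_g3, at residues 33 to 55 and 76 to 98, for TR86599|c0_g1, at residues 43 to 65 and 78 to 100, and for TR82364|c1_g1, at residues 129 to 151 and 171 to 193. TR59188|c3_g3 had 6, of which 4 lay between residues 12 and 156 and the last ended at residue 602, so its predicted protein spans at least that length. No helix was listed for TR51558|c0_g1 or TR3750|c0_g1. Whether the proteins of these 2 are complete was not tested.

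**Figure D1:**
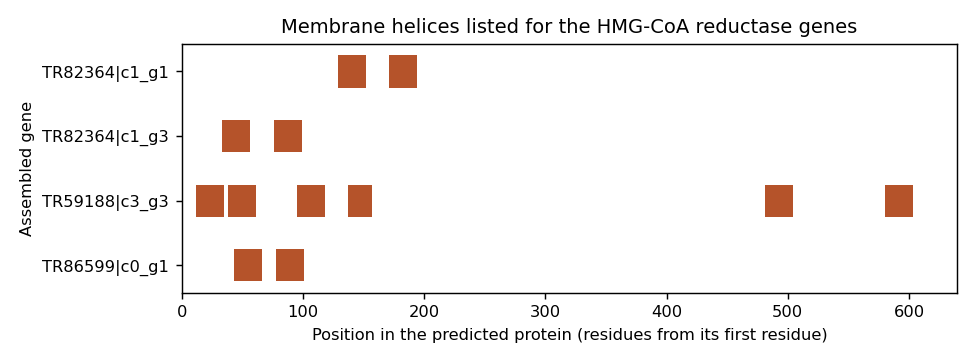
Membrane helices in the authors' annotation of the HMG-CoA reductase genes, as bars over the residue position (x axis) of each predicted protein that has any (y axis). The first 2 helices lie within residues 12 to 193 in all 4 proteins, and TR59188|c3_g3 alone has 4 more, up to residue 602.

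TR59188|c3_g3 had the largest difference of the family at 12 and at 24 h. Its level was 6.41 before treatment, 198 at 12 h, 63.6 after a day and 18.4 after 48 h. It was thus lowest before treatment and highest at 12 h, 30.9-fold above 0 h, and was still 9.92-fold above 0 h at 24 h and 2.86-fold above it at 48 h. The log2 differences from 0 h were 4.75, 3.12 and 1.38. Over the 29399 genes that reached a level of 1, 210 had a more positive difference at 12 h (0.714%), 532 at 24 h (1.81%) and 2257 at 48 h (7.68%). The difference was -1.62 from 12 to 24 h and -1.74 from 24 to 48 h, a step at which 258 of the 29399 genes (0.878%) had a more negative difference. It was 1 of 117 genes (0.398%) counted higher at 12 h against 0 h and lower at both following steps, a pattern chosen after its values were seen.

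Both genes of component TR82364 with a level of at least 1 had smaller differences, of unlike time course. The 4 means of TR82364|c1_g1 were 7.17, 26.2, 26.1 and 14.9, in order of time. Its level at 12 h was 3.66-fold that at 0 h and its level at 24 h was 3.65-fold, so that it held through the time at which TR59188|c3_g3 had come down to 0.321 of its peak. Its log2 differences from 0 h were 1.74, 1.73 and 0.96, the last just short of the 2-fold threshold (1.06 with median-of-ratios scaling). Those of TR82364|c1_g3 were 32.4, 42.2, 26.2 and 19.3. It was the only member with its lowest level at 48 h, at 0.594 of the 0 h level, and its log2 differences of 0.37, -0.30 and -0.72 were all under the threshold. The 2 genes may share reads, since their labels share both the component and the cluster. With the levels of the 3 genes of that name on component TR82364 summed, the log2 differences were 0.79, 0.40 and -0.20, none of them counted. TR82364|c0_g1, included in the sum, carries another cluster label.

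The other 3 members, TR51558|c0_g1, TR3750|c0_g1 and TR86599|c0_g1, had levels under 5 at all times and an alternating course, high at 12 and 48 h and low at 0 and 24 h. The means of TR51558|c0_g1 were 0.634, 3.28, 1.12 and 2.49 in order of time. TR3750|c0_g1 was at 0.282, 2.33, 0.402 and 2.34 at the same times, 8.31-fold higher at 48 h than at 0 h. TR86599|c0_g1 was at 0.626, 2.23, 0.552 and 2.30. In all 3 genes both the 12 h and the 48 h level lay above both the 0 h and the 24 h level. This order of the 4 means, singled out after the values were seen, was found in 9.39% of the 29399 genes, in 11.5% of the 10523 genes with a maximum level under 5, and in none of the 3 members with higher levels. Their log2 differences from 0 h were between 0.99 and 1.39 at 12 h, between -0.07 and 0.38 at 24 h and between 1.02 and 1.38 at 48 h. From 24 to 48 h TR3750|c0_g1 differed by 1.25, with 1.36% of genes more positive, TR86599|c0_g1 by 1.09 and TR51558|c0_g1 by 0.72. With a pseudocount of 5 in place of 1, none of these differences reached the threshold. At 48 h, TR86599|c0_g1 was at 0.98 with columns scaled to equal totals. The counting error of these low means cannot be computed.

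**Figure D2:**
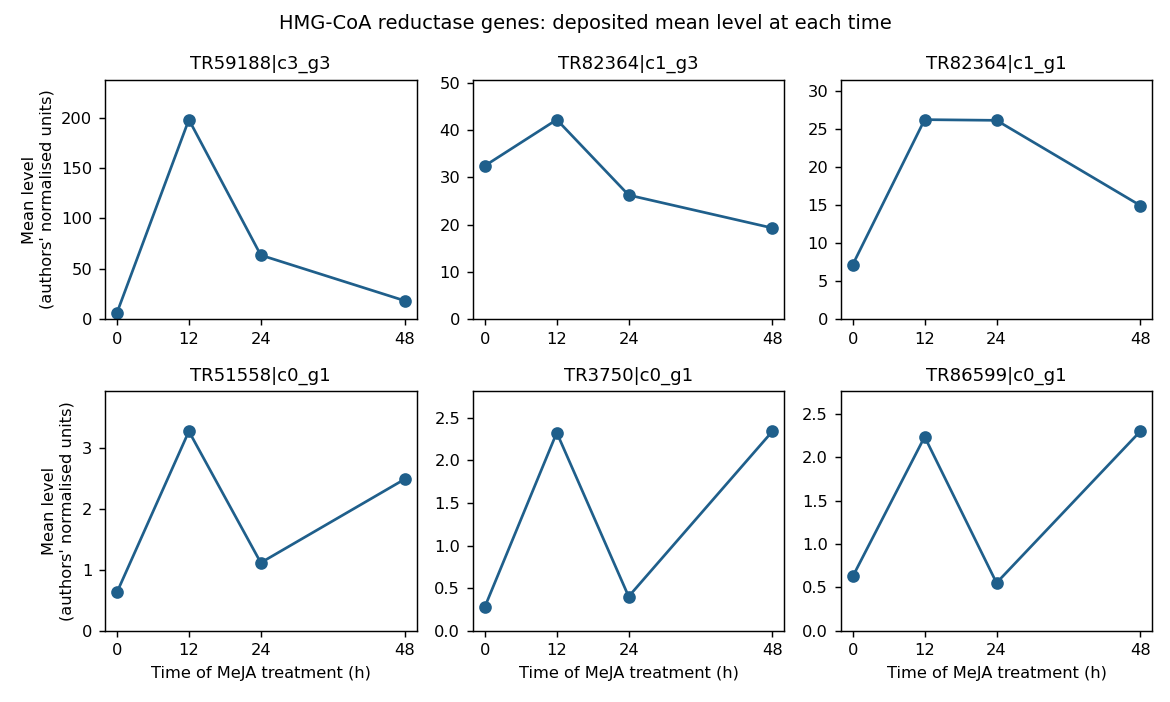
Deposited mean level (y axis, the authors' normalised units, a scale of its own from 0 in each panel) of the 6 HMG-CoA reductase genes against time of MeJA treatment in hours (x axis), each point 1 mean with no error available. TR59188|c3_g3 peaks at 198 at 12 h, and TR82364|c1_g1 stays near 26 at 12 and 24 h. TR82364|c1_g3 has its own lowest level, 19.3, at 48 h, and the 3 genes of the lower row are high at 12 and 48 h.

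The distances between time profiles were computed from the same 4 means, so they restate the groups above and are no separate support for them. The distance used was Euclidean, over the 4 times, between log2(level + 1) profiles from which each gene's own mean was subtracted. The 3 genes of low level lay 0.31 to 0.39 from each other, on a scale that shrinks differences where levels are low. The 2 genes of component TR82364 lay 1.54 apart. TR59188|c3_g3 was 2.32 from its nearest member, TR82364|c1_g1, and 3.33 from the farthest, TR86599|c0_g1. With 4 means per gene, these distances are a description of shape only.

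At 12 h, 4 of the 6 members were higher than at 0 h and none was lower, beside 15.0% of all 29399 genes higher and 17.7% lower. The 4 were TR59188|c3_g3, TR82364|c1_g1, TR51558|c0_g1 and TR3750|c0_g1, and TR86599|c0_g1 at 0.99 lay at the edge of the threshold. The median log2 difference of the members was 1.38, against 0.06 over all genes. All 6 levels at 12 h lay above those at 0 h, as did those of 53.1% of all genes. Without the 3 members of low level, 2 of 3 were higher. Those 3 members were under a level of 1 at 0 h, so none could be counted lower against 0 h. They also met the level minimum only through later times.

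At 24 h, 2 of the 6 members were higher than at 0 h, TR59188|c3_g3 and TR82364|c1_g1, and none was lower, beside 13.4% and 16.9% of all genes. Here too, the 3 members of low level could not be counted lower against 0 h. The median of the members was 0.25, against 0.01 over all genes. Against 12 h, 4 members were lower at 24 h and none was higher, where 11.1% of all genes were lower and 10.6% higher. These were TR59188|c3_g3 and the 3 genes of low level, of which TR51558|c0_g1, at -1.01, was not counted with either scaling of the columns. TR3750|c0_g1 and TR86599|c0_g1 met the level minimum only through 12 and 48 h, which favours a fall from 12 to 24 h. Without the 3 genes of low level, TR59188|c3_g3 alone was lower. TR82364|c1_g1 differed by less than 0.01 between these times.

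At 48 h, 4 of the 6 members were higher than at 0 h and none was lower, beside 12.2% and 19.6% of all genes. They were TR59188|c3_g3 and the 3 genes of low level, with a median over all members of 1.06 against -0.09 over all genes. Without those 3, 1 of 3 members was higher. Those 3 could not be counted lower against 0 h, and they met the level minimum only through later times. From 24 to 48 h, TR3750|c0_g1 and TR86599|c0_g1 were higher, where 2.36% of all genes were, and TR59188|c3_g3 was lower, where 4.50% were. TR3750|c0_g1 and TR86599|c0_g1 were under a level of 1 at 24 h, so neither could be counted lower at this step. The 3 comparisons with 0 h share the same column of 0 h, so their counts are not independent of each other.

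**Figure D3:**
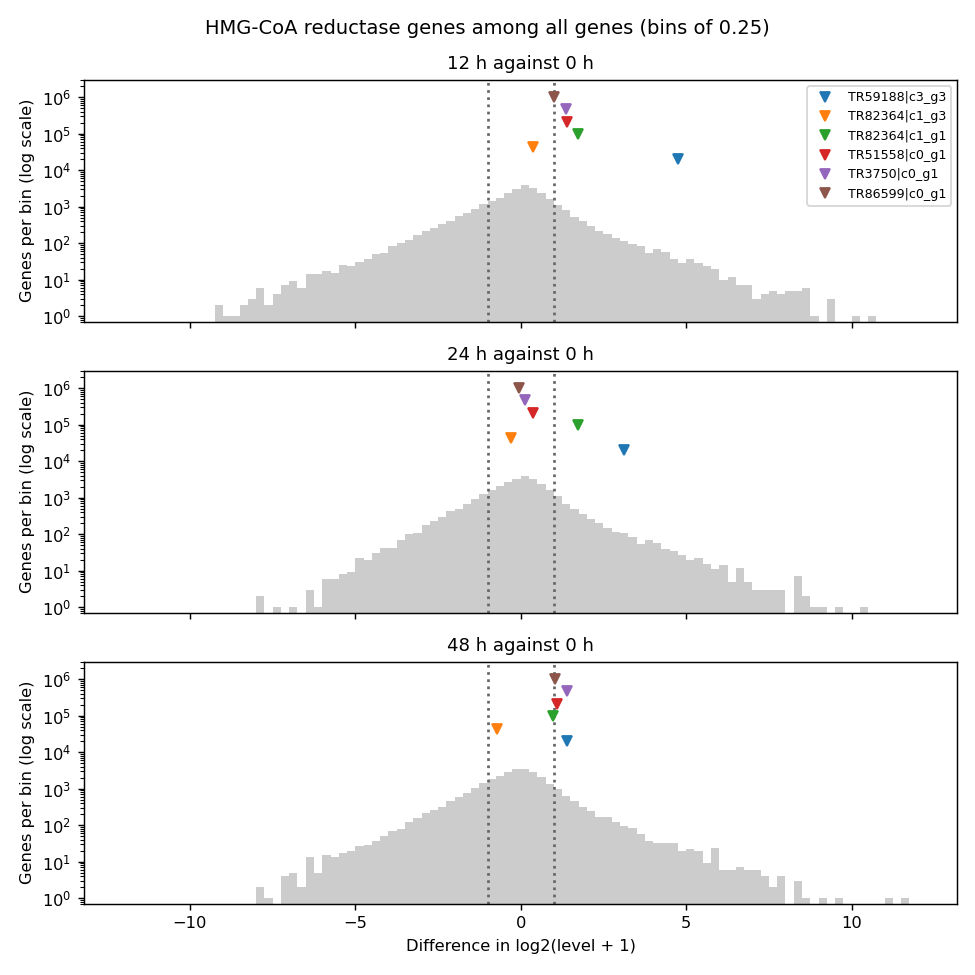
Difference in log2(level + 1) from 0 h (x axis) at 12, 24 and 48 h, as a histogram of the 29399 genes (grey, bins of 0.25, y axis on a log scale) with each HMG-CoA reductase gene as a triangle whose height has no meaning. Dotted lines mark the threshold of 1 in each direction. TR59188|c3_g3 stands at 4.75, 3.12 and 1.38, and no member lies beyond the line for lower. Members with a level under 1 at 0 h could not reach that line.

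The other steps of the mevalonate pathway, taken by name, had 12 genes, all with a level of at least 1. At 12 h, 5 of the 12 were higher and none lower, beside the 15.0% and 17.7% of all genes. Their median log2 difference was 0.89, and the largest, 2.02, lay below the 4.75 of TR59188|c3_g3. At 24 h 2 were higher, where 13.4% of all genes were, and at 48 h 1 was, where 12.2% were, so these counts lay near the shares of all genes. None was lower at these times, and the medians were 0.39 and 0.56. Before the reductase in the pathway, cytosolic acetyl-CoA acetyltransferase 1, which joins 2 acetyl-CoA units, had 2 genes. TR75719|c0_g2 was at 18.1, 57.8, 37.7 and 41.3 in order of time, higher by 1.62 at 12 h and 1.15 at 48 h. Its difference of 1.02 at 24 h was not counted with either scaling of the columns (0.98 and 0.87) or a pseudocount of 5 (0.89). TR85307|c0_g1 was at 16.7, 30.0, 29.4 and 30.5, under the threshold throughout.

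HMG-CoA synthase makes the substrate of the reductase. Of its 4 genes, TR39861|c0_g1 was at 27.6, 96.1, 34.2 and 31.2 over the 4 times, a log2 difference of 1.76 at 12 h and of 0.30 and 0.17 later. The other 3 were not counted at any time. TR61689|c0_g1 ranged from 6.50 to 7.58, TR46332|c0_g1 from 2.95 to 6.28 and TR85671|c0_g2 from 0.228 to 1.07. The synthase gene TR39861|c0_g1 and TR59188|c3_g3 both had their peak at 12 h, as did 32.2% of all 29399 genes. The level of this synthase gene at 24 h was 0.355 of its peak.

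After the reductase, mevalonate kinase (TR18700|c0_g1) was at 7.39, 16.0, 14.4 and 13.7, with a difference of 1.02 at 12 h that was not counted with either scaling (0.93 and 0.87) or a pseudocount of 5 (0.76). Phosphomevalonate kinase (TR74946|c0_g1), the next enzyme, was at 4.48, 6.13, 6.64 and 7.88 and was not counted. Diphosphomevalonate decarboxylase (TR52690|c0_g1), which forms isopentenyl diphosphate, was at 9.64, 41.2, 22.7 and 16.4, with differences of 1.99, 1.15 and 0.71, the second not counted with a pseudocount of 5 (0.92). Isopentenyl phosphate kinase (TR52492|c0_g1), which returns isopentenyl phosphate to the diphosphate, was at 9.38, 15.6, 18.2 and 13.0. Isopentenyl diphosphate isomerase balances the pair of isoprenoid units and serves the plastid route as well. Its gene TR55934|c0_g1 was at 3.01, 15.3, 3.46 and 1.89, higher at 12 h by 2.02, and TR66997|c1_g2 was at 133, 263, 164 and 126, with a difference of 0.98 at 12 h.

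**Figure D4:**
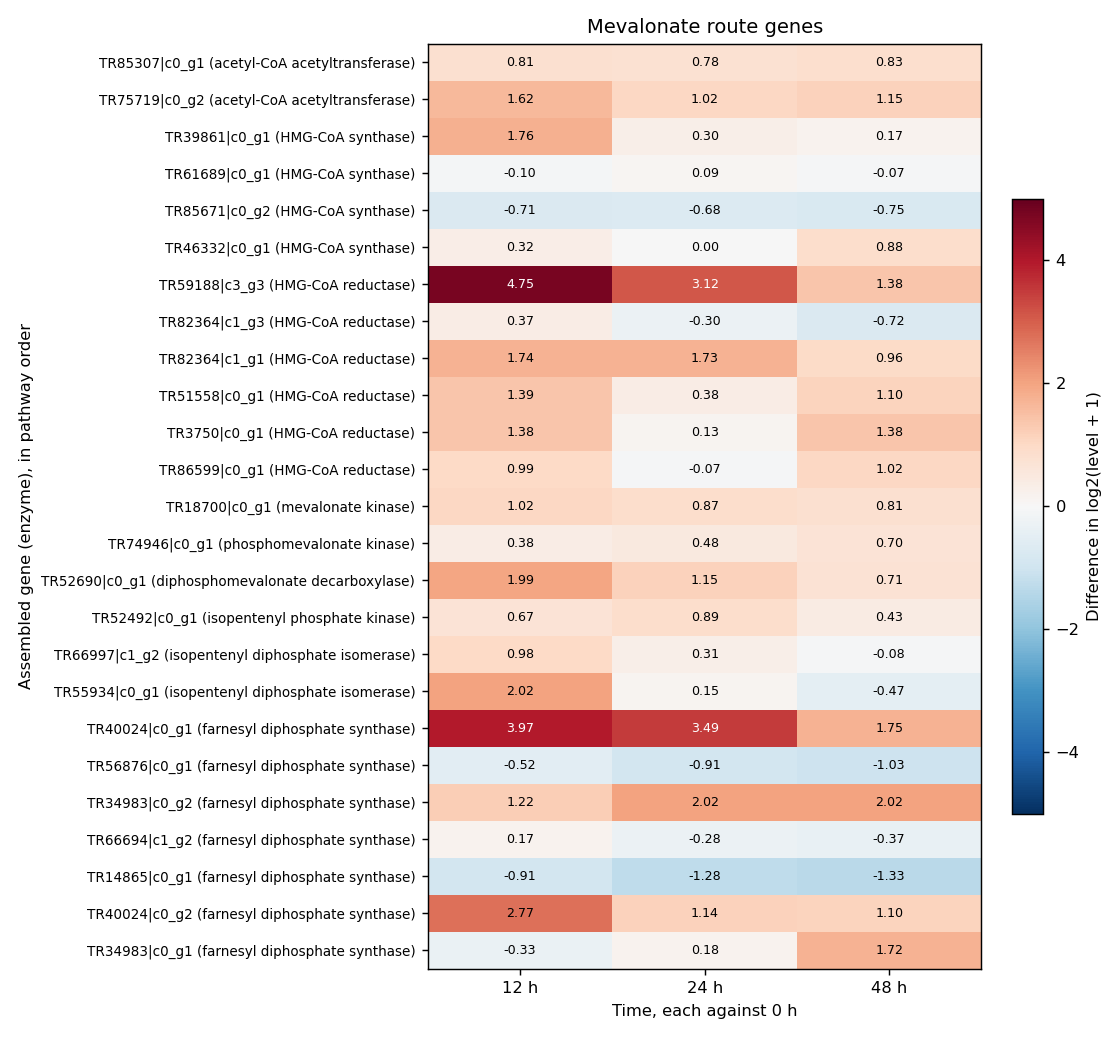
Difference in log2(level + 1) from 0 h at 12, 24 and 48 h (columns) for each gene of the mevalonate pathway and of farnesyl diphosphate synthase (rows, in pathway order), as colour and printed value. TR59188|c3_g3 has 4.75 at 12 h, and the farnesyl diphosphate synthase TR40024|c0_g1 has 3.97.

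Farnesyl diphosphate synthase, which condenses the units to the precursor of sterols and sesquiterpenes, had 7 genes, of which 3 were higher at 12 h, 3 at 24 h and 4 at 48 h, with 0, 1 and 2 lower. The shares of all genes were 15.0%, 13.4% and 12.2% higher and 17.7%, 16.9% and 19.6% lower. TR40024|c0_g1 was at 0.407, 21.1, 14.9 and 3.74, with its highest level at 12 h, as for TR59188|c3_g3 and for 32.2% of all genes. TR40024|c0_g2, on the same component, was at 0.124, 6.66, 1.48 and 1.42. TR34983|c0_g2 was at 18.1, 43.6, 76.4 and 76.7, highest late, while TR66694|c1_g2 was at 56.9, 64.2, 46.6 and 43.7. TR34983|c0_g1 was at 2.17, 1.53, 2.59 and 9.47. TR56876|c0_g1 and TR14865|c0_g1 had their highest levels of 1.66 and 2.07 at 0 h. They met the level minimum only through that time, and every gene counted lower was 1 of these 2. TR40024|c0_g1 and TR40024|c0_g2 were under a level of 1 at 0 h and met the minimum only through later times. Neither of them could be counted lower against 0 h.

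Lists of genes that draw on the route or run beside it are read against the same shares of all genes. Those higher were 15.0%, 13.4% and 12.2% at 12, 24 and 48 h, and those lower 17.7%, 16.9% and 19.6%. Of 11 genes in the sesquiterpene synthase list, 6 were higher at 12 h, 9 at 24 h and 9 at 48 h, with none lower, and medians of 1.85, 1.93 and 1.60. The name patterns of this list include the bare word germacrene, so not every gene in it need be a synthase. The beta-caryophyllene synthase TR48613|c1_g1 was at 0.195, 382, 62.9 and 14.01, highest at 12 h as were 32.2% of all genes. The germacrene A synthase TR23775|c1_g2 was at 0.0910, 129, 204 and 227. Both were under a level of 1 at 0 h, so neither could be counted lower, and both met the level minimum only through later times. How many other genes of these lists share this limit was not counted. Some hits of this list are named for nerolidol synthases of plastids or mitochondria. Of 32 sterol and triterpene genes, 12 were lower at 12 h, 11 at 24 h and 15 at 48 h, with 6, 1 and 2 higher, so that the list had members on both sides, and medians of -0.63, -0.84 and -0.95. The 2 genes of this list named for the size of their difference do not stand for the rest. The squalene monooxygenase TR32008|c0_g1 was at 19.2, 0.646, 0.508 and 0.728, and the cycloartenol-C-24-methyltransferase TR32400|c3_g1 was at 121, 14.3, 64.6 and 41.8. In the plastid MEP pathway, 11 of 24 genes were higher at 12 h, 12 at 24 h and 12 at 48 h, with 2, 1 and 2 lower. The 2 of its genes most different from 0 h were the CDP-methylerythritol kinase TR14286|c0_g2, at 19.8, 227, 212 and 201, and the reductoisomerase TR50722|c0_g4, at 40.3, 407, 166 and 164.

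HMG-CoA reductase is also controlled as a protein. SNF1-related kinase 1 inactivates the enzyme by phosphorylation, and in Arabidopsis protein phosphatase 2A and the ubiquitin ligase SUD1 act on its activity. Of 26 genes named for these, 2 were higher and 1 lower at 12 h, 3 and 0 at 24 h, and 2 and 3 at 48 h, with medians of 0.23, 0.22 and 0.34. These counts lay below the shares of all genes, which were 15.0%, 13.4% and 12.2% higher and 17.7%, 16.9% and 19.6% lower. By the rule for named genes, its 2 most different genes are given. The SUD1 hit TR25127|c0_g2 was at 5.62, 40.9, 45.7 and 66.5, higher by 2.66, 2.82 and 3.35. The phosphatase 2A regulatory subunit A hit TR56000|c0_g2 was at 12.7, 12.4, 6.19 and 2.85, lower at 48 h. These are transcript levels, and no protein or activity was measured.

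The genes whose profile lay nearest to that of TR59188|c3_g3 were sought among 8668 other annotated genes whose mean over the 4 times was 10 or more. The 5 nearest were a dihydroflavonol-4-reductase hit (TR57391|c0_g1), an enzyme of anthocyanin synthesis, at a distance of 0.40, a stem 28 kDa glycoprotein hit (TR68757|c2_g1), a vegetative storage protein of soybean, at 0.41, a raucaffricine beta-glucosidase hit (TR13505|c0_g2), an alkaloid glucosidase of Rauvolfia, at 0.53, the glutathione S-transferase U25 hit TR48868|c0_g1 at 0.58, and the transcription factor hit ERF3 (TR15703|c0_g1) at 0.58. The storage protein hit had levels of 503, 12305, 3881 and 1667 in order of time. The dihydroflavonol reductase hit was at 2.76, 98.3, 29.1 and 11.9. In all 5 the level was lowest at 0 h and highest at 12 h, which the measure of likeness selects for. In all, 23 of the 8668 genes lay within a distance of 1, and only the 5 nearest are named here. Whether the others within that distance belong to the mevalonate or isoprenoid lists was not tested.

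**Figure D5:**
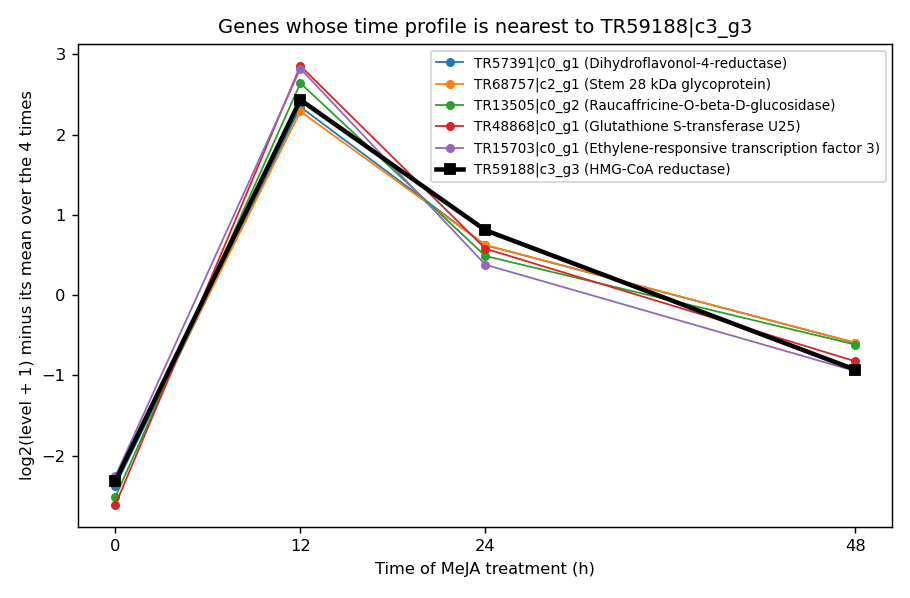
log2(level + 1) minus its own mean over the 4 times (y axis) against time of MeJA treatment in hours (x axis) for TR59188|c3_g3 (thick black line) and the 5 annotated genes nearest to it (thin lines). All 6 lines are lowest at 0 h and highest at 12 h, and the 5 genes lie at distances of 0.40 to 0.58.

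Component TR59188 also held 4 assembled genes without the reductase name or domain in the annotation, and these varied little. Only 1 of the 4 had a Swiss-Prot name. A nuclear pore protein NUP1 hit, TR59188|c3_g4, which carries the same cluster label c3 as the reductase, was at 8.17, 7.80, 7.94 and 8.37. The unannotated TR59188|c4_g4 was at 18.3, 20.4, 19.7 and 17.4. The log2 difference from 0 h that was largest in size over the 4 genes was -0.29, that of TR59188|c4_g3 at 48 h, beside 4.75 for TR59188|c3_g3. TR59188|c4_g3 itself lay below the level minimum.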

How the data were processed

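RNA of A. paniculata leaves was sequenced at 4 times of MeJA treatment, 3 samples each per the labels. Per the file headers, the authors deposited 1 expression signal per assembled gene and time. All values are whole multiples of 0.001 divided by 3 (tolerance 0.001 of that step), so each is a mean of the replicates. The submitters' processing notes list, with no roles, RSEM 1.2.19, Trimmomatic 0.33, FastQC 0.11.3 and CASAVA. For the unit of the signal, the assembler and the reference, nothing is given in the sources used here. Column totals were 866243, 973347, 965390 and 932776, and no depth per sample can be derived.

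Differences in log2(level + 1) were computed with Python 3.11.15, pandas 2.3.3 and numpy 2.4.6, and counted at 1 or more in genes whose highest level was 1 or more. Because the table holds no replicates, limma, planned for values per sample, could not be run, and no test was made. The members and lists were chosen with earlier results of these data known. Named genes are all members, all genes of the other mevalonate steps and of farnesyl diphosphate synthase, the 2 most different genes with a maximum level of at least 5 in each other list, and the 5 nearest profiles; genes on the members' components were added after the values were seen. List members were found by name pattern in the best Swiss-Prot description. The steps were tested on simulated data. Alternatives were pseudocounts of 0.1 and 5, 2 scalings of the columns, a 1.5-fold threshold, other level filters and sums per component. Sequences and genome positions are not reported.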

Additional observations from a re-analysis of the deposited data

How the results depend on the processing

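The differences of TR59188|c3_g3 from 0 h were counted as higher at all 3 times under all 5 alternatives of pseudocount, scaling and threshold. Of 150 differences of single members under these alternatives, 127 stayed on their side of the threshold and none changed direction while counted; with a pseudocount of 5, 10 of 30 were no longer counted. With a pseudocount of 5, and likewise among members with a maximum level of at least 5, 2 reductase genes were higher at 12 h and 1 at 48 h. Of all 18876 genes with a maximum level of at least 5, 3192 were higher at 12 h and 2743 at 48 h. With levels summed per component, 1 was higher at 24 h: the sum over the 3 genes named reductase on TR82364, TR82364|c0_g1 included, differed by 0.40. At 1.5-fold, 5, 2 and 5 reductase genes were higher at 12, 24 and 48 h, and 1, TR82364|c1_g3, was lower at 48 h. Among the other mevalonate genes, 8, 5 and 6 were higher at 12, 24 and 48 h at 1.5-fold, with 1 lower at each time. Of all 29399 genes, 7475, 7019 and 6253 were higher and 7641, 7873 and 8959 lower at this threshold, in the same order of time. With a pseudocount of 0.1, 1 was lower at each time and 2 were higher at 48 h. At 12 h 4 were higher with a pseudocount of 5 or either scaling, without the mevalonate kinase. At 24 h none (0) was higher with a pseudocount of 5, and 1 with either scaling. Over all 29399 genes, 2166, 1974 and 1771 were higher and 2682, 2299 and 2713 lower at 12, 24 and 48 h with a pseudocount of 5. With a pseudocount of 0.1, 5948, 5568 and 5118 were higher and 6698, 6613 and 7585 lower. At 1.5-fold, 7475, 7019 and 6253 were higher, and 7641, 7873 and 8959 lower, in the same order of time. Those higher were 3991, 3740 and 3965 with median-of-ratios scaling, and 3833, 3416 and 3304 with equal column totals. Scaling to equal column totals shifted the median of all genes by -0.13 at 12 h and -0.11 at 24 h. No paired analysis was possible because the table holds 1 mean per time, and for the same reason no replicate could be left out. The depth behind the means is unknown, which bears most on the 3 members with levels under 5.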
